A study of Mus musculus with 10 samples.

Results

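The 43 genes described here encode proteins that copy DNA, control its licensing, supply nucleotides or act at entry into S phase. Also among them are the mismatch repair gene Msh6 and Uhrf1, which keeps up DNA methylation at newly copied DNA. All 43 were measured in 10 single Bergmann glial cells of the mouse cerebellum, 5 from postnatal day 6 (P6) and 5 from postnatal day 30 (P30). A gene was taken as measured when at least 1 probe set of the array had a value in every cell and was paired with that gene alone. All 43 genes passed this rule, of 17919 genes in the series, and 92 of their 94 probe sets had values in all 10 cells.

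Bergmann glia are astroglial cells whose somata lie beside the Purkinje neurons and whose radial processes guide migrating granule neurons in the young cerebellum. Cells of both ages came from the GFAP-GFP reporter line, in which the Gfap promoter drives GFP, and no other allele or treatment is given for either age. Each cell was picked by hand from dissociated tissue of the mid-sagittal cerebellum, chosen by strong GFP and bushy processes on one side of the soma, and its amplified cDNA was put on 1 whole-genome Affymetrix mouse array. GFP also marks other astroglia in this line, so cells were picked by shape as well as by the reporter. According to the paper, identity was then checked by PCR and Southern blot. Arrayed cells had to be positive for Gfap, Fabp7, Sept4 and Slc1a3 and negative for the neuronal genes Nefl and Mtap2, now Map2. Tubulin beta-III was checked in some cases. Values of these marker genes are therefore not independent of how the cells were selected. A cell is called by its replicate number in the labels, P6 cells 1 to 5 and P30 cells 1 to 5. The labels name no animal, so cells of one age may share an animal, each age was counted as 1 sample, and no p-value was computed. The SD and ranges below describe the spread between cells.

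DNA replication begins when the origin recognition complex, with CDC6 and CDT1, loads the ring of MCM proteins onto DNA before S phase. Kinases, CDC45, the GINS complex and MCM10 then turn the ring into a moving helicase, behind which primase, the DNA polymerases, the PCNA clamp with its loader RFC, the flap nuclease FEN1 and ligase LIG1 build the new strands. Many of these genes are transcribed shortly before or in S phase under E2F factors, and they are widely used as marks of cycling progenitor cells, whereas mature astroglia rarely divide.

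The deposited values are ratios within a probe set, so that a log2 ratio of 0 marks the median P6 cell in most probe sets and the values carry no level. They show which cell or age is higher for a gene, not how strongly one gene is expressed against another. Log2 ratios were averaged over the probe sets of a gene, ages were compared by the difference of the means of 5 cells, P6 minus P30, and a difference counted as large above 3-fold, which is 1.58 on the log2 scale. Values at the deposited floor of 0.01 made up 19 of 460 values of these genes at P6 and 41 of 460 at P30. A fold against an age with values at the floor is given as "at least", and no fold is given where the floor was met at both ages.

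Since E2F control is the textbook feature that these genes share, the stretch around each start site was searched for the E2F letters TTTCCCGC, TTTGGCGC, TTTCGCGC and TTTGCCGC on both strands. The RefSeq table of GRCm38.p6, with 250 bases before and 50 after each start, held an entry for 35 of the 43 genes. At least 1 such match was present in 14 of the 35, or 40%, against 3.84% of the 14246 array genes with an entry. The letters CCAAT, on either strand, were present in 23 of the 35, or 65.7%, against 42.0% of the array genes, and TTTGAA in 3 of the 35, or 8.57%, against 15.6%. Of the 14 genes with an E2F match, 8 were over 3-fold higher at P6, and of the 21 without one, 5 were, while the remaining genes over 3-fold higher at P6, Mcm4, Gmnn and Gins2, have no entry. Over all genes 9.39% were over 3-fold higher at P6, and that share was not split by E2F match. A link between the letters and the age difference was therefore not tested. A match is a string of letters and no measured binding.

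The windows of Lig1 and of the 4 genes of the MCM ring with an E2F match are shown, because the ring and the ligase hold the genes without overlap between ages described below. The window of Mcm2, also of the ring, held no match, and Mcm4 has no entry. Capitals mark the E2F letters, and each window is written 5′ to 3′ on the strand of its gene. Mcm3 lies at chr1:20820263-20820562 on the minus strand, Mcm5 at chr8:75109259-75109558 on the plus strand, Mcm6 at chr1:128359656-128359955 on the minus strand, Mcm7 at chr5:138171834-138172133 on the minus strand and Lig1 at chr7:13278576-13278875 on the plus strand. Mcm7 and Lig1 have further start sites in the table, whose windows held no E2F match. In Mcm5, and at the first of the sites in Mcm6, matches on opposite strands overlap.
Mcm3: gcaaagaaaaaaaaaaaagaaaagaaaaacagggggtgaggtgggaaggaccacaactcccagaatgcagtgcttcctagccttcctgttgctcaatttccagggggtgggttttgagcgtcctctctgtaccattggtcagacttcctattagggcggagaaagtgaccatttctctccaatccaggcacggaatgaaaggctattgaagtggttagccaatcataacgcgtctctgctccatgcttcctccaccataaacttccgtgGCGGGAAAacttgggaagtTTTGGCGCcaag
Mcm5: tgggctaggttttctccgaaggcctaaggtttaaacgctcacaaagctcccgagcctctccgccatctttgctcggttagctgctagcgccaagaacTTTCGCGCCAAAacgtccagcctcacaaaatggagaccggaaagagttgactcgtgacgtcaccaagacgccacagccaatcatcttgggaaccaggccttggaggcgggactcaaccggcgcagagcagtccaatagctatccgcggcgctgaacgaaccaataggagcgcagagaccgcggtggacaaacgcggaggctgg
Mcm6: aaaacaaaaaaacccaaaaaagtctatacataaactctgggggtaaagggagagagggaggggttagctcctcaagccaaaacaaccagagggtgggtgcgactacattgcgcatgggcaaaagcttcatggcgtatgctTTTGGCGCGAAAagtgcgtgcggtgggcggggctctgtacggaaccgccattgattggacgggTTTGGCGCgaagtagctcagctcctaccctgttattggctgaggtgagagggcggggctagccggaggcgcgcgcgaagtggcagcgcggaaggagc
Mcm7: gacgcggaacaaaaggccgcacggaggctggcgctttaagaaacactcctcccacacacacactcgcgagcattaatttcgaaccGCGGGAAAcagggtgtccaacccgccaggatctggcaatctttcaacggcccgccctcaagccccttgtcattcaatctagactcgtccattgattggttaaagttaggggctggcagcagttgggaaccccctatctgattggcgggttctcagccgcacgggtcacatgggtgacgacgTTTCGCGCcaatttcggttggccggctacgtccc
Lig1: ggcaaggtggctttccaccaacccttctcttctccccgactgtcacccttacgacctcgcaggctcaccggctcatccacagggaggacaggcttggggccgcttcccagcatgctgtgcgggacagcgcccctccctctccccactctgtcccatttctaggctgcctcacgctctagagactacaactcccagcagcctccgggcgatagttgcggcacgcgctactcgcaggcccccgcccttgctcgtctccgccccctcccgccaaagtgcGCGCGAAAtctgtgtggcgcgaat

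Replication genes were higher in P6 than in P30 cells as a group, with the MCM ring at the front. Of the 43 genes, 16 (37.2%) were over 3-fold higher at P6, where 9.39% of all 17919 genes were. Only Cdc6 was over 3-fold higher at P30, 2.33% of the genes against 4.93% of all genes, and 26 lay within 3-fold. By sign alone, 34 of the 43 were higher at P6, or 79.1%, against 52.4% of all genes. The median difference was 1.00 for the 43 genes and 0.05 for all genes. Other scalings of the arrays shift all differences alike, and median, housekeeping and spike scaling take 0.16, 0.22 and -0.28 off each, the last being an increase. Relative to those shifts the counts were 15, 15 and 18 higher at P6 and 1, 1 and 0 at P30, against 8.03%, 7.55% and 13.0% of all genes higher at P6 and 6.12%, 6.68% and 3.37% at P30.

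Some markers of cell types also differed between ages. All 10 astroglia markers were lower at P6, with a median difference of -0.69, and 2 were over 3-fold higher at P30 (20%, all genes 4.93%). These were the gap junction gene Gja1 at 9.02-fold and without overlap between ages, and Aldoc, an astroglial aldolase, at 8.80-fold. Of 8 markers of granule neuron precursors 7 were higher at P6, or 87.5% against 52.4% of all genes, with a median of 0.54 and none over 3-fold. The factor gene Pax6 was without overlap at 1.98-fold. Of 10 neuron markers 6 were higher at P6, or 60% against 52.4% of all genes, with a median of 0.20 that was -0.06 without P6 cell 5. Of these 10, 2 were over 3-fold higher at P6 (20%, all genes 9.39%). Gap43 was 6.07-fold and Syt1 1.88-fold higher at P6, both without overlap. Higher at P30 were Rbfox3 (2.59-fold), Nefl (1.43-fold), Snap25 (1.08-fold) and Tubb3 (1.03-fold). Over 3-fold higher at P30 were 2 of 9 endothelium and pericyte markers (22.2%, median -0.35) and 1 of 9 oligodendrocyte markers (11.1%, median -0.42). Cnp, of the latter list, was higher at P30 without overlap. No Purkinje neuron or microglia marker passed 3-fold, with medians of -0.08 and 0.37. Of all genes, 2.13% were without overlap and higher at P6, and 1.41% at P30. The part of these shifts in the difference of the replication genes between ages was not tested.

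Single cells overlapped widely between ages. All 5 P6 cells lay above all 5 P30 cells in 2 of the 43 genes, Mcm5 and Lig1, or 4.65% against 2.13% of all genes. In none of the 43 did all P30 cells lie above all P6 cells, against 1.41% of all genes. The count at P6 was 5 without P6 cell 4, or 11.6% against 2.85% of all genes with that cell left out, 4 without P6 cell 2 (9.30% against 3.05%) and 4 without P30 cell 3 (9.30% against 3.01%). The P6 cells differed among themselves far more in these genes than in the typical gene. The median SD between the P6 cells was 1.81 over the 43 genes and 0.92 over all genes. Between the P30 cells it was 1.00 and 0.97. The SD was larger at P6 than at P30 in 33 of the 43 genes, against 45.3% of all genes. This spread was not particular to the 43 genes. Set against the other 4 P6 cells, the median of the mitosis and G2 genes described below ran from -1.06 to 4.21 between cells. That of the 43 genes ran from -1.13 to 1.99.

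**Figure D1:**
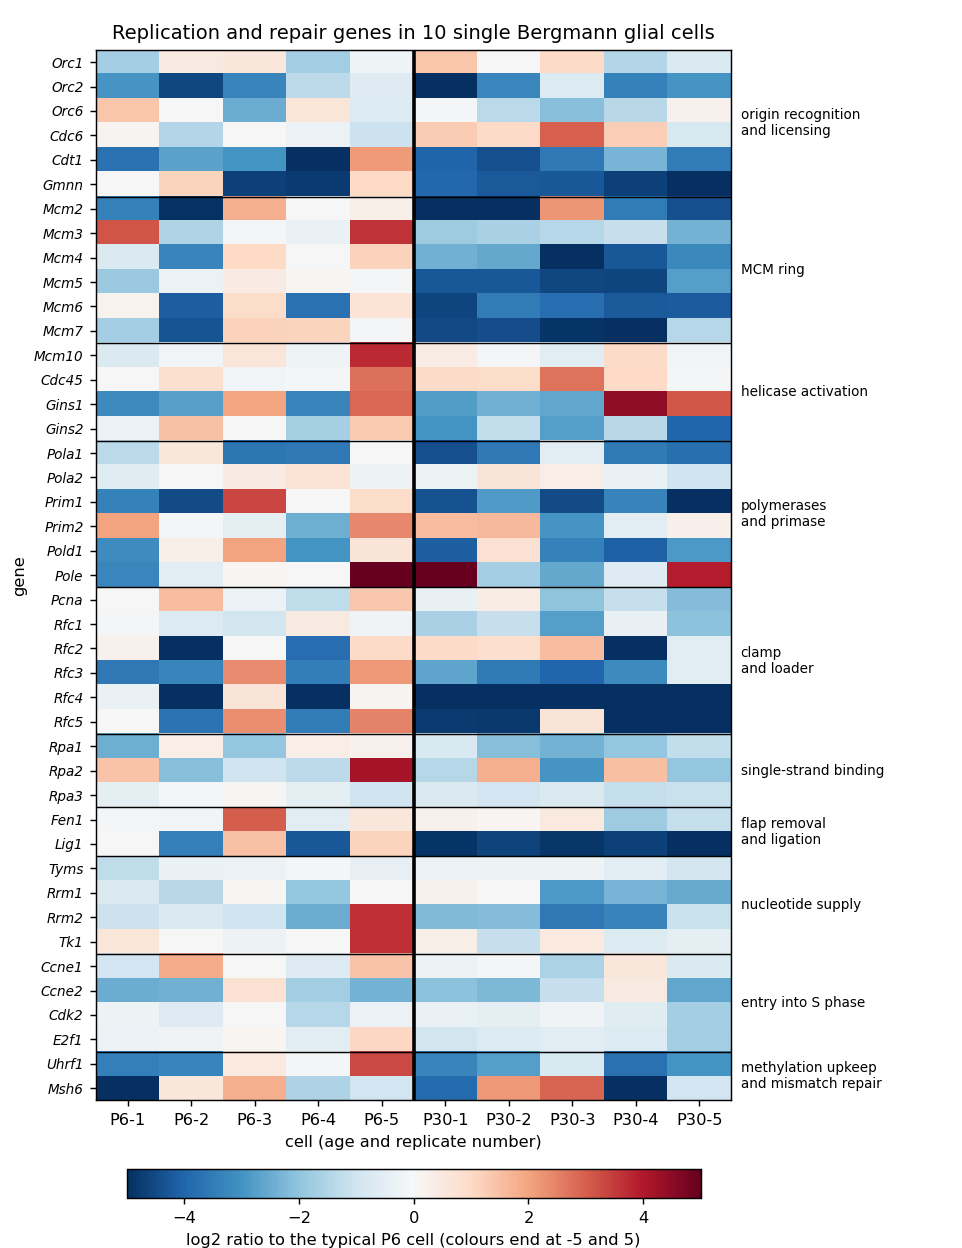
Log2 ratio to the typical P6 cell of the 43 genes (rows, grouped by role) in each of the 10 cells (columns, age and replicate number), with red above and blue below that cell and colours ending at -5 and 5. The MCM ring, Lig1 and Rfc4 are mostly blue at P30, and P6 cell 5 is the column with most red, with 24 of 43 genes over 3-fold above the other P6 cells.

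The MCM ring, whose 6 subunits form the core of the replicative helicase, was higher at P6 in all of its members. The 6 differences ran from 2.06 to 3.72 with a median of 3.02, and each was over 3-fold. Mcm5 was the member with no overlap between ages. It stood at -1.85, -0.30, 0.42, 0.11 and -0.09 in P6 cells 1 to 5 and at -4.23, -4.22, -4.54, -4.59 and -2.76 in P30 cells 1 to 5. The means were -0.34 ± 0.88 and -4.07 ± 0.75 (SD over 5 cells of an age), at least 13.2-fold apart, and the lowest P6 cell, cell 1, was above the highest P30 cell, cell 5.

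Mcm4 stood at -0.74, -3.31, 0.99, 0 and 1.15 in the P6 cells and at -2.39, -2.57, -5.51, -4.24 and -3.23 in the P30 cells, at least 9.22-fold higher at P6. Mcm7 had -1.68, -4.32, 1.15, 1.11 and -0.04 at P6 and -4.52, -4.43, -4.92, -5.07 and -1.43 at P30, a difference of 3.32. For both genes P6 cell 2 was as low as the P30 cells while P6 cells 3 to 5 were high, and P30 cell 5 was the highest of its age for Mcm7. Mcm6 was at 0.19, -4.11, 0.93, -3.75 and 0.69 at P6 and at -4.60, -3.49, -3.79, -4.20 and -4.17 at P30, a difference of 2.84. Here P6 cells 1, 3 and 5 were high, and cells 2 and 4 lay within the range of the P30 cells.

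Mcm3 ran at 3.14, -1.52, -0.09, -0.35 and 3.60 at P6 and -1.77, -1.64, -1.41, -1.17 and -2.35 at P30, 6.17-fold higher at P6. P6 cells 1 and 5 stood over the other P6 cells, and cell 2 lay among the P30 cells. Mcm2 read -3.38, -4.93, 1.83, 0 and 0.30 at P6 and -5.61, -5.21, 2.20, -3.49 and -4.38 at P30, 4.17-fold higher at P6. Its highest value of all was in P30 cell 3, which alone lay above the P6 cells, and the difference was 1.29 without P6 cell 3, 1.48 without P30 cell 1 and 1.58 without P30 cell 2, short of 3-fold each time.

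Probe sets of a ring gene did not all move alike. Mcm5 has 1415945_at and 1436808_x_at with differences of 5.67 and 5.74, for which P30 cells 1 to 4 were at the floor, and 1459658_at with -0.24. Likewise Mcm6 has 1416251_at with 4.01 and 1438852_x_at with 4.65, against 1447756_x_at with -0.14. With every probe set that met the floor in any cell left out, only the low probe set remained for each of the 2 genes, and their differences were then -0.24 and -0.14. The 5 probe sets of Mcm3 ran from 0.93 to 4.83, and those of Mcm2 from 1.52 to 2.61, while Mcm4 (2.91 to 3.50) and Mcm7 (2.71 to 4.11) were over 3-fold in every probe set. Across the 43 genes no gene had probe sets over 3-fold in opposite directions.

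**Figure D2:**
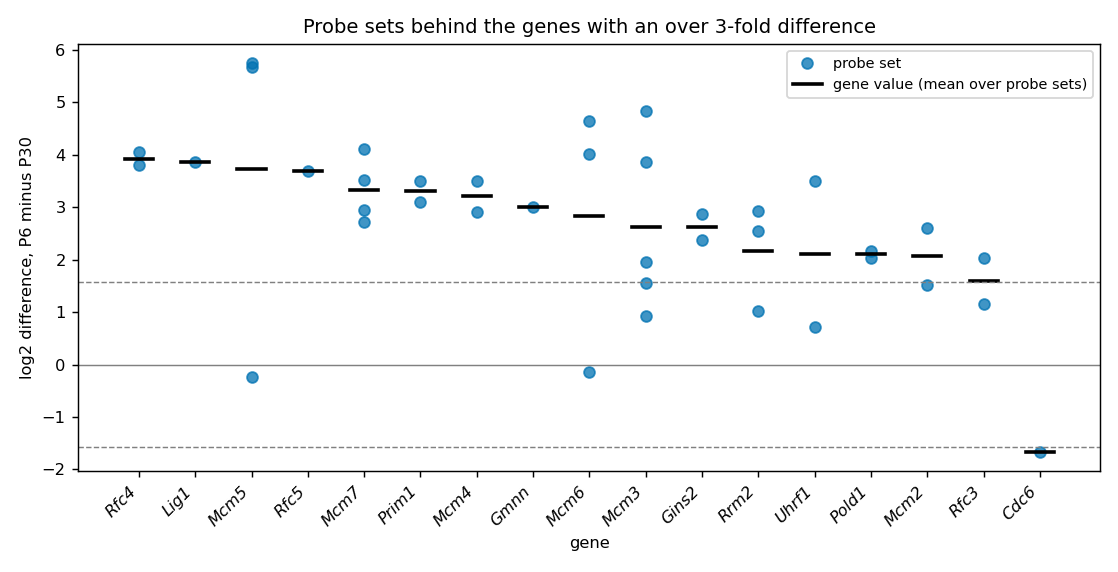
Log2 difference, P6 minus P30, of each probe set (points) and of the gene as the mean over its probe sets (bars) for the 17 genes over 3-fold at either age. Dashed lines mark 3-fold at 1.58 and -1.58. Mcm5 and Mcm6 each have 1 probe set near 0 beside those between 4.01 and 5.74.

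Genes that recognise and license origins were mixed, with 1 of 6 past 3-fold at P6, 1 at P30 and a median difference of 0.60. Gmnn, whose product geminin holds CDT1 back after licensing, was 0, 1.12, -4.68, -4.78 and 0.99 in the P6 cells and -3.93, -4.20, -4.25, -4.67 and -5.36 in the P30 cells, 8.06-fold higher at P6. P6 cells 1, 2 and 5 were high, and P6 cells 3 and 4 were as low as the P30 cells. Cdc6, which helps load the ring, went the other way, with 0.13, -1.45, 0, -0.28 and -1.06 at P6 and 1.26, 0.96, 2.98, 1.24 and -0.82 at P30. It was 3.15-fold higher at P30, all P30 cells but cell 5 lay above every P6 cell, and the difference fell short of 3-fold without P30 cell 3 (-1.19), P6 cell 2 (-1.43) or P6 cell 5 (-1.52). Cdt1, the loading factor, was at 2.12 in P6 cell 5 and between -5.34 and -2.34 in the other 9 cells, with a difference of 1.03. The remaining members, Orc1, Orc2 and Orc6, had differences from -0.55 to 0.70.

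Among the 4 genes of helicase activation, Gins2, a subunit of the GINS complex, was over 3-fold higher at P6 and the other 3 were not, for a median of 0.05. Gins2 was -0.28, 1.46, 0, -1.65 and 1.31 at P6 and -2.97, -1.23, -2.75, -1.37 and -3.95 at P30, 6.16-fold higher at P6, and P6 cells 1, 2, 3 and 5 lay above every P30 cell. Gins1, a subunit of the same complex, showed a pattern of high and low cells at both ages. It was -3.20, -2.70, 1.96, -3.32 and 2.89 at P6 and -2.79, -2.41, -2.59, 4.44 and 3.11 at P30, so that P6 cells 3 and 5 and P30 cells 4 and 5 were high and the other 6 cells low, with a difference of -0.83. Mcm10, a helicase partner, was high in P6 cell 5 alone, at 3.72 against at most 0.94 in the other cells.

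Of the 6 genes for polymerases and primase, Prim1 and Pold1 were over 3-fold higher at P6 and the median difference was 0.93. Prim1, the catalytic primase subunit, was -3.39, -4.49, 3.35, 0 and 0.93 at P6 and -4.36, -2.85, -4.46, -3.34 and -5.08 at P30, 9.85-fold higher at P6. P6 cells 3, 4 and 5 lay above all P30 cells, with cell 3 highest, and P6 cells 1 and 2 among them. Pold1, the catalytic subunit of polymerase delta, was -3.14, 0.29, 2.01, -2.98 and 0.65 at P6 and -4.13, 0.77, -3.36, -4.08 and -2.88 at P30, 4.30-fold higher at P6, with P30 cell 2 among the high P6 cells, and 1.44 on the log2 scale without P6 cell 3. Pole, the catalytic subunit of polymerase epsilon, was -3.25, -0.56, 0.11, 0 and 5.64 at P6 and 6.62, -1.69, -2.55, -0.66 and 3.91 at P30. Its high cells, P6 cell 5 and P30 cells 1 and 5, stood at both ages, and the difference was -0.74.

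The clamp and its loader held 3 genes over 3-fold higher at P6 of 6, with a median of 1.47. Rfc4, a loader subunit, had a difference of 3.92, which is no bound because values met the floor at both ages, with -0.33, -6.48, 0.64, -6.64 and 0.14 at P6 and -6.41, -5.94, -6.64, -6.64 and -6.64 at P30. P6 cells 1, 3 and 5 were far above all other cells, and P6 cells 2 and 4 were at or near the floor like the P30 cells. Rfc5 was 0, -3.71, 2.33, -3.48 and 2.49 at P6 and -4.78, -4.84, 0.66, -6.08 and -5.71 at P30, 12.8-fold higher at P6. The same P6 cells 1, 3 and 5 were high, and P30 cell 3 stood between them.

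Rfc3 was -3.58, -3.32, 2.35, -3.45 and 2.15 at P6 and -2.62, -3.53, -3.97, -3.17 and -0.58 at P30, a difference of 1.60 that rested on P6 cells 3 and 5. It lay short of 3-fold without P6 cell 3 (0.72), without P6 cell 5 (0.77) and without P30 cell 2, 3 or 4 (1.41, 1.30 and 1.5), and the difference of medians was -0.15. Pcna, the sliding clamp, was 0, 1.54, -0.28, -1.26 and 1.36 at P6 and -0.36, 0.38, -2, -1.14 and -2.17 at P30, 2.52-fold higher at P6, with overlapping cells and a single probe set. Rfc2 had its low cells at both ages, P6 cells 2 and 4 at -5.92 and -3.79 and P30 cell 4 at -5.29 against -0.54 to 1.56 in the other 7 cells. Its difference was -1.21.

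**Figure D3:**
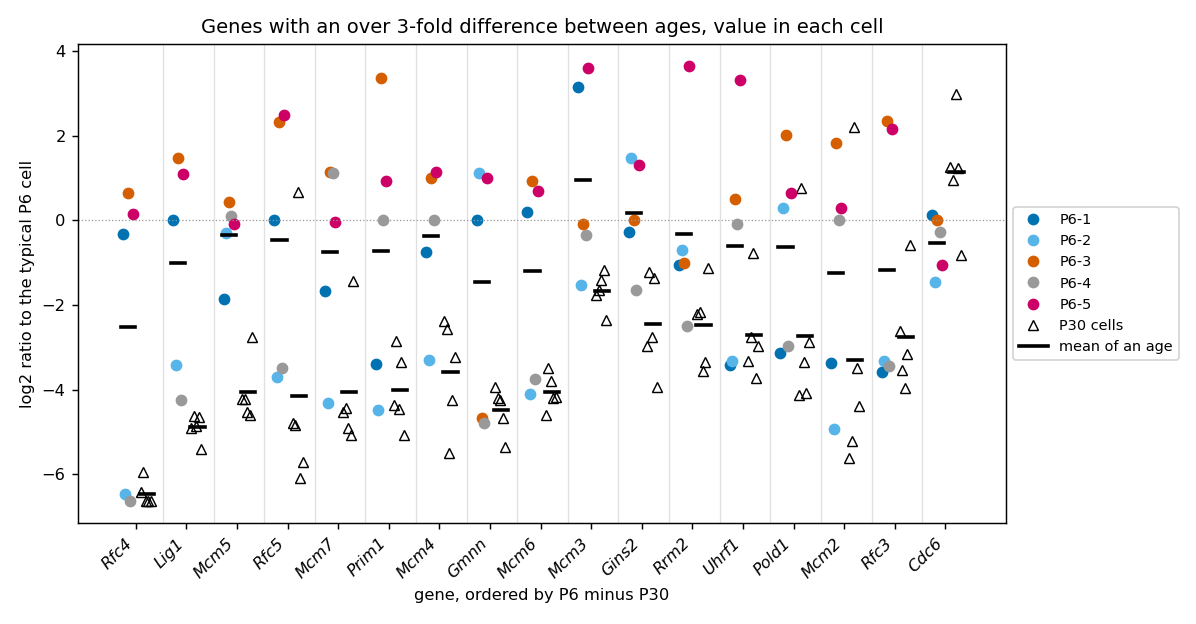
Log2 ratio of the 17 genes over 3-fold at either age in each cell, with P6 cells as coloured circles by replicate number, P30 cells as open triangles and black bars for the mean of an age, genes ordered by the difference. In Rfc4, Rfc5, Lig1 and Mcm6 the P6 cells split into 3 high cells (1, 3 and 5) and 2 low ones, and Mcm5 and Lig1 are the genes whose ages do not overlap.

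Lig1, which seals the nicks between Okazaki fragments, was 0, -3.41, 1.46, -4.24 and 1.10 at P6 and -4.90, -4.63, -4.87, -4.66 and -5.40 at P30. The means were -1.02 ± 2.64 and -4.89 ± 0.31 (SD over 5 cells of an age), 14.7-fold higher at P6, from a single probe set, 1416641_at. Every P6 cell lay above every P30 cell, though P6 cell 4 did so by little. Fen1, the flap nuclease of the same step, was within 3-fold at 0.99, and its high cell was P6 cell 3 at 3.01.

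Nucleotide supply gave 1 of 4 genes over 3-fold higher at P6 and a median of 0.89. Rrm2, the regulated subunit of ribonucleotide reductase, was -1.06, -0.71, -1.01, -2.49 and 3.65 at P6 and -2.22, -2.16, -3.56, -3.35 and -1.13 at P30, 4.47-fold higher at P6. P6 cell 5 stood far above all others, and without it the difference was 1.17. Tk1, the thymidine kinase of cycling cells, was 3.64 in P6 cell 5 and at most 0.59 elsewhere. The other members, Tyms and Rrm1, had differences of -0.02 and 0.69, each an average over probe sets that disagreed. Those of Tyms gave 0.89, 0.98, -1.0 and -0.95, and those of Rrm1 gave 2.42, -0.25 and -0.11.

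None of the 3 genes of the single-strand binding protein RPA and none of the 4 for entry into S phase was past 3-fold, with medians of 0.83 and 0.44. Rpa1, the large subunit, had the largest difference of its group, 1.00, with -2.43, 0.35, -1.92, 0.33 and 0.23 at P6 and -0.75, -2.14, -2.36, -1.95 and -1.22 at P30. P6 cells 2, 4 and 5 were above all P30 cells, and cells 1 and 3 were not. E2f1, an E2F factor that drives S phase genes, led its group with 0.94, from -0.30, -0.16, 0.11, -0.53 and 1.03 at P6 and -0.90, -0.69, -0.51, -0.69 and -1.74 at P30. All P6 cells but cell 4 lay above every P30 cell. The 3 probe sets of E2f1 did not move alike, with differences of 1.74, 1.24 and -0.17.

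Uhrf1 was -3.42, -3.32, 0.49, -0.09 and 3.32 at P6 and -3.32, -2.77, -0.77, -3.72 and -2.97 at P30, a difference of 2.11. P6 cells 3, 4 and 5 were above all P30 cells, the difference was 1.13 without P6 cell 5, and its 2 probe sets gave 3.49 and 0.72. Msh6, a mismatch recognition subunit, spanned -6.64 to 1.80 at P6 and -5.86 to 2.90 at P30, so that high and low cells stood at both ages, and its difference was -0.24.

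Set against the P30 mean, single P6 cells carried the replication genes to very different extents. Over 3-fold above the P30 mean were 30 of the 43 genes in P6 cell 5, or 69.8% (16.5% of all genes), 17 in cell 3, or 39.5% (15.2%), 14 in cell 1, or 32.6% (14.9%), 10 in cell 2, or 23.3% (15.3%), and 9 in cell 4, or 20.9% (14.9%). Only Mcm5 passed in all 5 P6 cells, Mcm4, Mcm7 and Gins2 passed in 4, and 8 genes passed in none. Without P6 cell 5 the count of genes over 3-fold higher at P6 was 13, or 30.2% against 9.67% of all genes, and the median difference 0.77. With P6 cells 3 and 5 both left out, an alternative chosen after the data were seen, 11 genes were over 3-fold higher at P6, against 10.1% of all genes, and the median difference was 0.49. Of the 16 genes, 9 were among these 11, Mcm2, Mcm6, Prim1, Pold1, Rfc3, Rrm2 and Uhrf1 were not, and Pola1 and Orc6 were new.

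Each cell was next set against the median of its 4 fellow cells of the same age. In P6 cell 5, 24 of the 43 genes were over 3-fold above the other P6 cells, or 55.8% against 11.9% of all genes, and none was over 3-fold below, against 9.36% of all genes, with a median deviation of 1.99. In P6 cell 3, 15 genes were above (34.9%, all genes 10.5%) and 4 below (9.30%, all genes 10.6%), with a median of 0.55. P6 cell 1 had 8 above (18.6%, all genes 10.2%) and 13 below (30.2%, all genes 9.62%). P6 cell 2 had 6 above (14.0%, all genes 11.0%) and 15 below (34.9%, all genes 12.4%). P6 cell 4 had 2 above (4.65%, all genes 9.63%) and 17 below (39.5%, all genes 10.7%), with the lowest median, -1.13. Hybridisation spikes read -0.54 in P6 cell 5 and -0.48 in P30 cell 5 against -0.13 to 0.39 in the other cells, and scaling to them put the median deviation of the replication genes in P6 cell 5 at 2.53. P6 cells 3 and 5 were thus the high cells and cell 4 the low one, and the median deviation of all genes was between -0.15 and 0.10 in the P6 cells.

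The P30 cells differed less. Over 3-fold above the others of that age were 4 genes in P30 cell 1 (9.30%, all genes 12.8%), 7 in cell 2 (16.3%, all genes 11.5%), 8 in cell 3 (18.6%, all genes 12.0%), 3 in cell 4 (6.98%, all genes 9.44%) and 6 in cell 5 (14.0%, all genes 11.8%). The medians lay between -0.32 and 0.25. Single high values were still present at P30, such as Pole at 6.62 in cell 1, Mcm2 at 2.20 and Rfc5 at 0.66 in cell 3, and Gins1 at 4.44 in cell 4.

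Which genes were high differed between P6 cells 3 and 5. Both cells were over 3-fold above the other P6 cells in 11 genes, namely Mcm2, Mcm6, Gins1, Pold1, Prim1, Rfc2, Rfc3, Rfc4, Rfc5, Lig1 and Uhrf1. A further 13 were above in cell 5 and not in cell 3, among them Pole (deviation 5.92), Cdt1 (5.48), Rpa2 (5.33), Mcm10, Tk1, Rrm2 and Gmnn. In cell 3 and not in cell 5 there were 4, Mcm7, Fen1, Ccne2 and Msh6. Gmnn had a log2 ratio of -4.68 in cell 3 and 0.99 in cell 5. These cells were singled out after the values were seen. The same split between the cells was not counted over all genes, so the counts only describe these genes.

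Genes of mitosis and G2 separated these cells further. Of 21 such genes, 20 were over 3-fold above the other P6 cells in P6 cell 5, or 95.2% against 11.9% of all genes, with a median deviation of 4.21. In P6 cell 3 none was above, against 10.5% of all genes, and 9 were below (42.9%, all genes 10.6%), with a median of -1.06. Ccnb2, a mitotic cyclin, was 0, 1.59, -4.94, -0.48 and 1.87 in the P6 cells and -4.99, -5.84, -4.16, -5.65 and -6.64 in the P30 cells, at least 33.4-fold higher at P6. All P6 cells but cell 3 were above every P30 cell. Mki67, the proliferation marker Ki-67, was 2.25, -3.48, -3.39, 0 and 2.07 at P6 and -4.06, -3.36, -3.87, -2.01 and -3.35 at P30, 7.07-fold higher at P6, with P6 cells 1, 4 and 5 high and cells 2 and 3 as low as the P30 cells. By age, 20 of the 21 were higher at P6 and 6 were over 3-fold so, or 28.6% against 9.39% of all genes, with a median difference of 0.82 that was 0.11 without P6 cell 5.

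**Figure D4:**
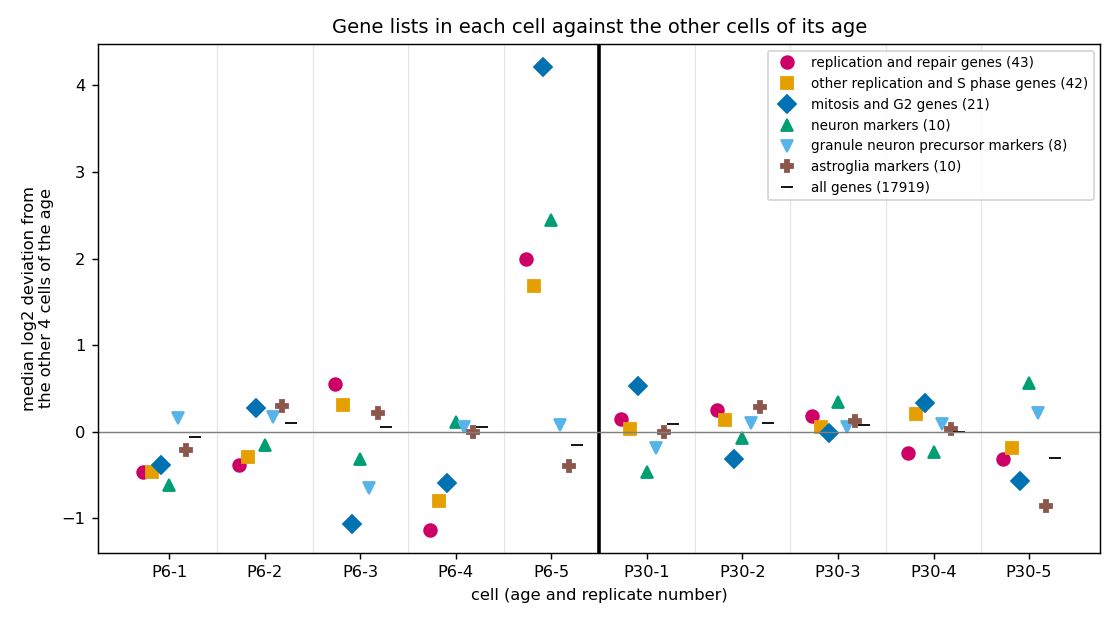
Median log2 deviation of gene lists in each cell, against its 4 fellow cells of the same age (vertical axis) for the 10 cells (horizontal axis, age and replicate number), with 1 symbol per list and dashes for all genes. In P6 cell 5 the replication genes (1.99), the other replication genes (1.68), the mitosis genes (4.21) and the neuron markers (2.44) are high, while in P6 cell 3 the replication genes are at 0.55 and the mitosis genes at -1.06.

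Some markers of other cell types were also high in P6 cell 5. Of all genes, 11.9% were over 3-fold above the other P6 cells there. Of 10 neuron markers, 5 (50%) were over 3-fold above the other P6 cells there, with a median deviation of 2.44. Among them were Nefm, a neurofilament chain, at 0.98 against -6.64 to -5.36 in the other P6 cells, and Gap43, a growth cone protein, at 3.33 against -0.63 to 0.17. The other 5 were not, with deviations of -1.26 for Nefl, -0.28 for Rbfox3, -0.25 for Syt1, 0.09 for Map2 and 1.54 for Elavl4. Arrayed cells had been selected as negative for Nefl and Map2, so the values of these genes are not independent of that selection. The mean log2 ratio of the neuron list was 1.17 in P6 cell 5, between -1.49 and -0.72 in the other P6 cells and between -1.46 and -0.35 in the P30 cells. Of 8 markers of granule neuron precursors, which divide in the outer cerebellum at this age, 1 was above in P6 cell 5, Neurod1 at 2.62. That is 12.5%, near the share of all genes, and the median deviation was 0.08. Atoh1, their defining factor, was -0.34 in that cell and between 0 and 1.44 in the other P6 cells. The 10 astroglia markers had a median deviation of -0.40 in P6 cell 5 and 0.22 in P6 cell 3.

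Of 9 markers of oligodendrocytes and their precursors, 3 were over 3-fold above the other P6 cells in P6 cell 5 (33.3%, all genes 11.9%). The deviations were 3.80 for the myelin gene Mbp and 1.59 for each of Pdgfra and Mag, and the median was 0.22. Of 9 markers of endothelium and pericytes 2 were above there (22.2%), the receptor gene Kdr with a deviation of 5.98 and the junction gene Cldn5 with 2.15. In the same list 1 was over 3-fold below, Esam with -2.09 (11.1%, all genes 9.36%), and the median was -0.48. Of 4 Purkinje neuron markers 1 was above (25%), Pcp4 with 3.77. In P6 cell 3, 2 of 8 microglia markers were above (25%, all genes 10.5%), the complement gene C1qa with 3.21 and Tyrobp with 2.79, at a median of 0.84. None of the microglia markers was above in P6 cell 5. Marker shifts were not confined to P6 cells. In P30 cell 5, 7 of 9 endothelium and pericyte markers were over 3-fold above the other P30 cells (all genes 11.8%), with a median deviation of 2.71. There 3 of 4 Purkinje neuron markers and 3 of 10 neuron markers were also above, with medians of 3.30 and 0.56. In P30 cell 2, 2 of 4 Purkinje neuron markers were above (all genes 11.5%). The part of other cell types in the replication values of these cells was not tested. Since the ratios carry no level, presence or absence of a marker could not be read from them.

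Other genes of replication and S phase were also mostly higher at P6, in 34 of 42, or 81.0% against 52.4% of all genes. Of these 42, 13 passed 3-fold at P6 (31.0%, all genes 9.39%) and 2 at P30 (4.76%, all genes 4.93%), with a median of 0.72. In P6 cell 5, 21 were over 3-fold above the other P6 cells (50%, all genes 11.9%), and in P6 cell 3 there were 6 (14.3%, all genes 10.5%). Pold2, a small subunit of polymerase delta, was 0, -5.16, 0.75, 1.02 and -0.11 at P6 and -4.60, -6.64, -6.64, -1.82 and -0.69 at P30, at least 10.4-fold higher at P6. Rnaseh2a, the catalytic subunit of RNase H2, was 0.11, -5.41, -5.06, 0 and 0.17 at P6 and -5.37, -6.64, -6.64, -5.73 and -0.61 at P30, at least 7.79-fold higher at P6. In both genes P6 cell 2 was low like most P30 cells, as was P6 cell 3 in Rnaseh2a, and P30 cell 5 was higher than the other P30 cells. Among 12 further E2F and pocket protein genes none was past 3-fold in either direction, and the median was 0.25.

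Over 6 lists of repair and checkpoint genes outside replication, 6 of 65 genes, or 9.23%, were over 3-fold higher at P6 and 2, or 3.08%, at P30, close to the 9.39% and 4.93% of all genes. No gene of mismatch repair (5 genes, median -0.14) or of homologous recombination (14 genes, median 0.07) was over 3-fold at either age. Base excision repair had 2 of 14 genes over 3-fold higher at P6 and a median of 0.51. Apex1, the main abasic site nuclease, was 0.13, -0.52, 0.18, 0 and -0.35 at P6 and -0.83, -6.64, -3.77, -6.20 and -0.96 at P30, at least 11.9-fold higher at P6 and without overlap between ages, and Ung, a uracil glycosylase, was the other, at 1.60, with cells high and low at both ages. Nucleotide excision repair had 1 of 13, Ercc2, a helicase of TFIIH, at -0.38, 0.51, -1.25, -0.27 and 0.07 at P6 and -2.12, -2.85, -2.40, -2.01 and -2.63 at P30. It was 4.39-fold higher at P6, again without overlap, and the median of its list was 0.46.

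End joining had Prkdc, the catalytic subunit of the DNA-dependent kinase, over 3-fold higher at P6 (4.90) and Xrcc4 over 3-fold higher at P30 (-2.57) among 5 genes, with a median of -0.03. Prkdc was -0.15, 0.13, 0.72, -1.83 and -6.64 at P6 and -5.69, -6.64, -6.64, -6.64 and -6.64 at P30, so that the high replication cell, P6 cell 5, was at the floor like P30 cells 2 to 5. Of 14 damage checkpoint genes, 2 passed 3-fold at P6 and 1 at P30, or 14.3% and 7.14%, with a median of 0.68 that was 0.09 without P6 cell 5. H2ax, the histone variant that marks breaks, was -0.23, 0.39, -2.79, 0 and 2.42 at P6 and -0.72, -2.05, -2.46, -4.36 and -2.97 at P30, 5.55-fold higher at P6, with P6 cell 3 among the P30 cells. Cdkn1a, an inhibitor of cyclin-dependent kinases, was 2.64, -0.32, 0.13, -0.21 and -0.89 at P6 and 4.06, 3.64, 4.02, 2.30 and 1.17 at P30, 6.82-fold higher at P30, and P6 cell 1 alone lay within the P30 range.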

How the data were processed

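Single GFP-positive cells were lysed, and their cDNA was amplified by PCR, labelled with biotin and hybridised to 1 array each. According to the authors, the arrays were processed with RMA in GeneSpring, values under 0.01 were raised to 0.01, and division by the 50th percentile of the array and by a median of the probe set followed. The deposited values are therefore linear ratios, and 10 values of 0 were set to 0.01 here. The genome build is not given in the sources used here. Depth does not apply to arrays, whose number limits the precision.

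Of 45101 probe sets, 43608 had a value in all 10 cells. Probe sets were paired with genes by the platform annotation, with symbols updated to GRCm38.p6: 34958 had 1 gene, 932 several and 9211 none. Ratios were turned to log2 and averaged over probe sets and then over cells. Each age counted as 1 sample, so differences were judged by a 3-fold size rule beside the same count over all genes, with no p-value. Members named with values in every cell were those over 3-fold, those without overlap between ages, the largest of each role, the MCM ring and Pcna, in other lists the 2 largest over 3-fold, and for single cells the 5 largest deviations. Genes named beyond these were chosen after their values were seen. The members and lists were chosen with earlier results of these data known. Cells were grouped by the age in the labels. Alternatives were 3 array scalings, another floor, other summaries of probe sets and cells, and the removal of single cells. The steps were tested on simulated data. Analyses used Python 3.11.15, NumPy 2.4.6 and pandas 2.3.3, with plots in Matplotlib 3.10.9.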

Additional observations from a re-analysis of the deposited data

Results flagged for a closer look

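In 5 of 42 groups of 5 cells, 1 cell stood far from the other 4, with a gap of over 0.71 of the whole range. This rule marks about 1 in 20 groups of independent values by chance, and cells of 1 animal would not be independent. All were at P30 and on the high side. Mcm2 was at 2.20 in P30 cell 3, and Rfc5 at 0.66 in the same cell. Mcm5 was at -2.76 and Mcm7 at -1.43 in P30 cell 5, where 2 of the 3 probe sets of Mcm5 were at the floor in the other 4 cells, and Pold1 at 0.77 in P30 cell 2. Most markers of endothelium and pericytes and of Purkinje neurons were also high in P30 cell 5, as given above. The cause was not tested.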

How the results depend on the processing

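Under the 3 scalings of the arrays all 17 genes over 3-fold kept their direction and 16 of them stayed over 3-fold. The number that stayed was 14 with a floor of 0.1, 13 with medians over cells, where 16 kept their direction, 13 without P6 cell 5 and 10 with P6 cells 3 and 5 both left out, where 16 kept their direction. Without probe sets at the floor 16 of the 17 were measured, 14 kept their direction and 12 stayed over 3-fold. The count over 3-fold higher at P30, 1, was 0 under spike scaling and with medians over cells, and 4 with P6 cells 3 and 5 both left out. The count of genes whose P6 cells all lay above the P30 cells, 2, was 5 under spike scaling and 1 under housekeeping scaling, with a floor of 0.1 and without probe sets at the floor, where 41 of the 43 genes were left. Without those probe sets Mcm5 was at -0.24 and Mcm6 at -0.14, since only 1 probe set of each remained, and Rfc3 was at -0.15 with medians over cells and at -0.68 with P6 cells 3 and 5 both left out. The small median deviations of the P30 cells moved with the scaling: that of cell 5 was 0.03 under median scaling, 0.52 under spike scaling, 0.03 under housekeeping scaling and -0.63 without probe sets at the floor, that of cell 2 was -0.05 under spike and -0.02 under housekeeping scaling, that of cell 3 was -0.10 under spike scaling, and under housekeeping scaling those of cells 1 and 4 were -0.22 and 0.03. With each cell left out in turn, the count higher at P6 ran from 13 without P6 cell 5 to 19 without P6 cell 4, that at P30 from 0 without P6 cell 2 to 3 without P6 cell 5, with 2 without P6 cell 1, P6 cell 3 or P30 cell 4, and the median difference from 0.77 to 1.21. Genes without overlap ran from 2 to 5 at P6 and from 0 to 1 at P30, the latter without P30 cell 5, and the median deviation of P30 cell 5 ran from -0.64 to -0.46. The causes of these shifts were not tested beyond the probe sets named. No paired analysis was possible because no test gives these results and the replicate numbers only name cells. Values of 0.01 limit how low a gene can be read, and ratios cannot tell a low gene from an absent one.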
